A study of Mus musculus with 8 samples.

Results

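The genes described here are 9 that mark preadipocytes or restrain their conversion into fat cells, namely Dlk1, Pdgfra, Pdgfrb, Thy1, Gata2, Gata3, Wnt5a, Wnt10b and Fgf2. They were chosen by name, with earlier results of these data known. All 9 were found among the 18194 genes that had a probe set with a single gene symbol. They were measured on Affymetrix Mouse Genome 430 2.0 arrays in cultured 3T3-L1 adipocytes, which are mouse fibroblasts induced to become fat cells, under 3 treatments that serve as models of insulin resistance. The groups were chronic insulin (CI, 2 arrays), tumour necrosis factor, an inflammatory cytokine (TNF, 3 arrays), and dexamethasone, a synthetic glucocorticoid (Dex, 3 arrays), and every one of the 8 samples also received the antioxidant MnTBAP for the final 6 hours. Neither untreated cells nor cells without the antioxidant were analysed here, so each value below only compares the models with each other, and a lower level in Dex than in CI cannot be told apart from a higher level under chronic insulin. The line is 1 cell line, and the labels do not state that replicates are separate cultures, so the p-values reflect only how far these samples spread, and that spread may be technical.

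Preadipocytes are fibroblast-like cells committed to the fat lineage. They carry surface receptors for platelet-derived growth factor (PDGF) and secrete or display factors that hold back the adipogenic regulators PPARγ and the C/EBP proteins until differentiation is triggered. Delta-like 1 (Dlk1, also called Pref-1) is shed from the cell surface to restrain adipogenesis, GATA2 and GATA3 are transcription factors of the preadipocyte that repress Pparg and bind C/EBP proteins, and WNT10B blocks the process through beta-catenin. In mature fat cells most of these genes are turned down, and they are often read as a sign of how complete the differentiated state is.

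In the Dex model 4 of the 9 genes, Dlk1, Gata3, Wnt5a and Fgf2, were lower than in CI, as were 5.67% of all genes, and 5, Dlk1, Pdgfra, Pdgfrb, Wnt5a and Fgf2, were higher in TNF than in Dex, as were 4.14% of all genes. The Pdgfra call was lost in 12 of 20 alternative fits. Between TNF and CI, Pdgfrb rose and Fgf2 fell in TNF, where 8.22% of all genes were called. Thy1, Gata2 and Wnt10b did not pass the test in any comparison. Here a gene counts as called when limma gave an adjusted p under 0.05 (Benjamini-Hochberg over all 18194 genes) and the log2 difference was larger than 0.5, and "rose", "fell", "higher" and "lower" without a value are used of called genes.

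The 250 bases upstream of the annotated start are printed for Dlk1, Gata3 and Fgf2, which were all lower in Dex than in CI. Those of Pdgfra, whose Dex and CI means nearly coincided in its brightest probe set, are printed beside them. That difference had a 95% interval from -0.57 to 0.53, and other Pdgfra probe sets gave 0.41 and 0.30. Pdgfra is thus not shown to be unchanged between Dex and CI. Of the 9 genes 6 had an entry in the RefSeq promoter table (GRCm38.p6), all but Pdgfrb, Thy1 and Wnt5a. Sequences run 5′ to 3′ on the strand of the gene, and capitals mark GC boxes, GGGCGG on either strand. The windows lie at chr12:109452573-109452822 (plus strand) for Dlk1, chr2:9878601-9878850 (minus strand) for Gata3, chr3:37348403-37348652 (plus strand) for Fgf2 and chr5:75152001-75152250 (plus strand) for Pdgfra.
Dlk1: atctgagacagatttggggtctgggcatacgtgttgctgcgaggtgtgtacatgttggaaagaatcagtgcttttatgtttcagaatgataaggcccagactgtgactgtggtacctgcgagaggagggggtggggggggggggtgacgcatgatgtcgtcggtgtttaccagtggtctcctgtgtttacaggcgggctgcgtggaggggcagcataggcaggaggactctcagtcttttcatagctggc
Gata3: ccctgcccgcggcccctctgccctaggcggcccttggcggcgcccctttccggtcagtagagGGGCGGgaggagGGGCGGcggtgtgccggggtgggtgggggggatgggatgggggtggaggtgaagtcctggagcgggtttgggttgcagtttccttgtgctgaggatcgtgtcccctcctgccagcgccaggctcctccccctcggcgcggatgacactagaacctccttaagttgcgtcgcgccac
Fgf2: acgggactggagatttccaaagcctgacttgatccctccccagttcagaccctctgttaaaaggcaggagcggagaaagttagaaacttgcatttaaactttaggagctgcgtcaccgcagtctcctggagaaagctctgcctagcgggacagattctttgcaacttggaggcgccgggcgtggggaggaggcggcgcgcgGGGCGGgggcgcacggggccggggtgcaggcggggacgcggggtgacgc
Pdgfra: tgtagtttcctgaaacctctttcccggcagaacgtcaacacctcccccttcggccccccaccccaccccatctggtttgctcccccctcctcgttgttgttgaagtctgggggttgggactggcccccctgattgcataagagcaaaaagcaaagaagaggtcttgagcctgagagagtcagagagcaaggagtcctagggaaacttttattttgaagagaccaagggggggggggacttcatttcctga

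Besides this GC box, both strands were searched for the hexamer AGAACA, to which the glucocorticoid receptor can bind. The letters TATAAA, which form the core of many promoters' TATA box, were searched for in the same way. Gata3 held 2 GC boxes and Fgf2 held 1, while Dlk1 and Pdgfra held none. The hexamer and the TATA box were found in 0 of the 7 windows of these 6 genes, Gata2 having 2 windows. Across 32851 windows of the same length, 16.1% held the hexamer, 32.7% a GC box and 12.4% a TATA box. The bases were 70.0% G or C in Gata3, 62.4% in Fgf2, 54.8% in Dlk1 and 54.4% in Pdgfra. The motif matches are a description of these letters only.

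Known targets of the agents moved with the labels. Fkbp5, a direct glucocorticoid target, exceeded its CI level in Dex by 2.96 ± 0.08 on the log2 scale (difference ± SE), and the acute phase gene Saa3 was higher in TNF than in CI by 5.19 ± 0.11. For Tsc22d3, another glucocorticoid target, Dex minus CI was 2.13 ± 0.15, and for the chemokine Ccl2 TNF minus CI was 1.52 ± 0.23. The labels call the cells adipose cells in one field and preadipocytes in another. The adipocyte hormone gene Adipoq lay between 14.31 and 14.39 in every array. It was near the highest intensity of the arrays (maxima from 22432.5 to 24273.6), so its evenness does not show equal expression. Of the 7 macrophage and leukocyte genes, group means ran from 4.60 to 4.66 for Ptprc, a pan-leukocyte gene, up to 8.50 to 8.90 for Csf1r and 10.09 to 11.04 for Lyz2. Of the 6 endothelial genes they ran from 5.12 to 5.23 for Tie1 and 5.91 to 6.00 for Cdh5 up to 7.60 to 7.81 for Eng and 8.27 to 8.46 for Kdr, where the median gene lay at 7.92. Limma called 0 of 6 endothelial genes in any comparison (4, 0 and 1 at an unadjusted p under 0.05 for TNF minus CI, for Dex minus CI and for TNF minus Dex). The summed intensity of the 7 leukocyte genes ran from 2095 to 2096 in CI, 2836 to 2929 in TNF and 1807 to 1834 in Dex, with Lyz2, a lysozyme gene, the only one called (TNF minus CI 0.55 ± 0.07, TNF minus Dex 0.95 ± 0.06). That of the 6 endothelial genes ran from 665 to 694, 743 to 795 and 689 to 740. As a measure of RNA quality, the 3′ minus 5′ log2 difference of beta-actin was 0.54 to 0.66 in CI, 0.71 to 0.83 in TNF and 0.49, 0.49 and 0.75 in the Dex arrays, so by this measure Dex replicate 3 stood apart from the others of its group. That of Gapdh was 0.14 to 0.16 in CI, 0.08 to 0.14 in TNF and 0.11, 0.07 and 0.08 in the Dex arrays. By Gapdh, Dex replicate 3 did not stand apart and TNF did not exceed CI. The part of these differences in the results below was not tested, except that a fit with the beta-actin value as a covariate, chosen after seeing the data, is given where it ended a call.

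**Figure D1:**
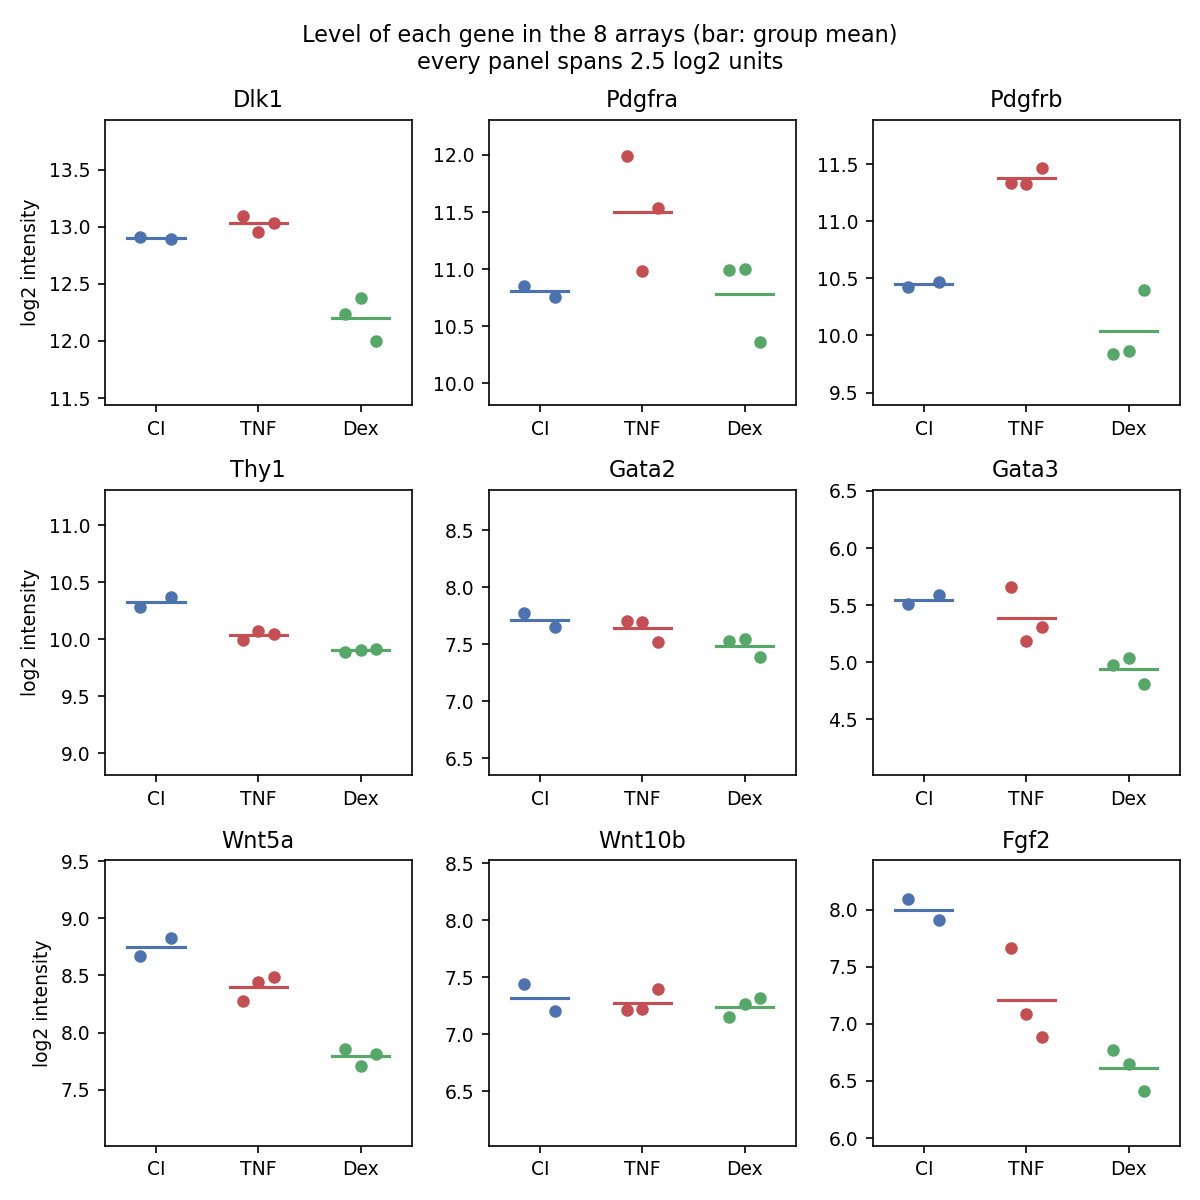
Log2 intensity (vertical axis) of the 9 genes in each array, by model (horizontal axis), with a bar at the group mean; every panel spans 2.5 log2 units. Dlk1 in Dex (12.00 to 12.37) lies under all CI and TNF arrays, Pdgfrb in TNF (11.32 to 11.46) over all others, and Wnt10b shows overlapping groups.

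Dlk1, the shed inhibitor of adipogenesis, had log2 intensities of 12.91 and 12.90 for CI, 13.10, 12.96 and 13.03 for TNF and 12.24, 12.37 and 12.00 for Dex. All 3 Dex arrays lay below every other array, and TNF lay slightly above CI without overlap. Dlk1 was 1.63-fold lower in Dex than in CI (log2 difference -0.70 ± 0.10, adjusted p by limma = 0.000496) and 1.78-fold lower than in TNF (TNF minus Dex 0.83 ± 0.09, adjusted p = 7.07e-05). TNF and CI differed by 0.12 ± 0.10, with a 95% interval from -0.10 to 0.35, which did not pass the test. These values come from probe set 1449939_s_at, whose suffix marks probes that can match more than a single transcript. A second, much dimmer probe set, 1442724_at, gave -0.28 ± 0.12 for TNF minus CI, opposite in sign to the brighter probe set, -0.13 ± 0.12 for Dex minus CI and -0.16 ± 0.10 for TNF minus Dex, and passed in none. With the median over both probe sets, Dlk1 was called neither for Dex minus CI (-0.41) nor for TNF minus Dex (0.34).

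The PDGF receptors are the surface tyrosine kinases by which fat progenitors are usually sorted, PDGFRA for the adipogenic fraction and PDGFRB for perivascular cells. Pdgfrb had log2 intensities of 10.43 and 10.47 for CI, 11.34, 11.32 and 11.46 for TNF and 9.84, 9.87 and 10.40 for Dex. The 3 TNF arrays stood above all others, and Dex replicate 3 lay close to the CI arrays, away from the other Dex arrays. Pdgfrb was 1.90-fold higher in TNF than in CI (0.93 ± 0.14, limma adjusted p = 0.000878) and 2.53-fold higher than in Dex (1.34 ± 0.13, adjusted p = 2.1e-05). Dex minus CI was -0.41 ± 0.14 (adjusted p = 0.0615), which did not pass, but did so without Dex replicate 3 (-0.59, adjusted p = 0.000528). The other probe set of Pdgfrb gave the same order, with 0.71 ± 0.10 for TNF minus CI, -0.37 ± 0.10 for Dex minus CI and 1.07 ± 0.09 for TNF minus Dex.

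Among the 9 genes, Pdgfra had the largest SD within TNF (0.50) and within Dex (0.37). Its brightest probe set gave 10.85 and 10.76 for CI, 11.99, 10.99 and 11.53 for TNF and 10.99, 11.00 and 10.36 for Dex. TNF replicate 2 lay within the range of the Dex arrays, so TNF and Dex overlapped, while all TNF arrays lay above CI. The difference between TNF and Dex was 0.72 ± 0.22 (limma adjusted p = 0.0409). This call was lost in 12 of 20 alternative fits (adjusted p up to 0.265). It held with TNF replicate 2 left out and was lost in each of the 7 fits that left out another array, with differences of 0.72 without CI replicate 1 or CI replicate 2, 0.48 without TNF replicate 1, 0.70 without TNF replicate 3, 0.82 without Dex replicate 1, 0.83 without Dex replicate 2 and 0.51 without Dex replicate 3. The other losses came with the beta-actin covariate (0.98, adjusted p = 0.0637), the median over probe sets (0.34, adjusted p = 0.265), every probe set as a feature (0.72, adjusted p = 0.0557), the fit of TNF and Dex alone (adjusted p = 0.0606) and eBayes with trend and robust settings (adjusted p = 0.133). TNF minus CI was 0.70 ± 0.25 (adjusted p = 0.0665), which passed in 6 of 20 alternative fits, among them those without TNF replicate 2 (0.96, adjusted p = 0.00914) and without Dex replicate 3 (0.70, adjusted p = 0.0405). Dex minus CI was -0.02 ± 0.25, with a 95% interval from -0.57 to 0.53.

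Other probe sets of Pdgfra bore on this directly. With 1438946_at the arrays read 7.15 and 7.18 for CI, 8.57, 8.32 and 8.57 for TNF and 7.45, 7.48 and 7.46 for Dex. The groups were tight and did not overlap, in the order TNF, Dex, CI. In the fit of every probe set, where the brightest probe set passed neither for TNF minus CI (adjusted p = 0.0843) nor for TNF minus Dex, TNF exceeded CI by 1.32 ± 0.09 for this probe set (limma adjusted p = 7.17e-06) and Dex by 1.02 ± 0.08 (adjusted p = 7.76e-06). The remaining probe set, 1421916_at, gave 0.75 ± 0.21 for TNF minus CI (adjusted p = 0.0337) and 0.34 ± 0.19 for TNF minus Dex (adjusted p = 0.295). All 3 probe sets placed the mean of TNF above those of CI and Dex.

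**Figure D2:**
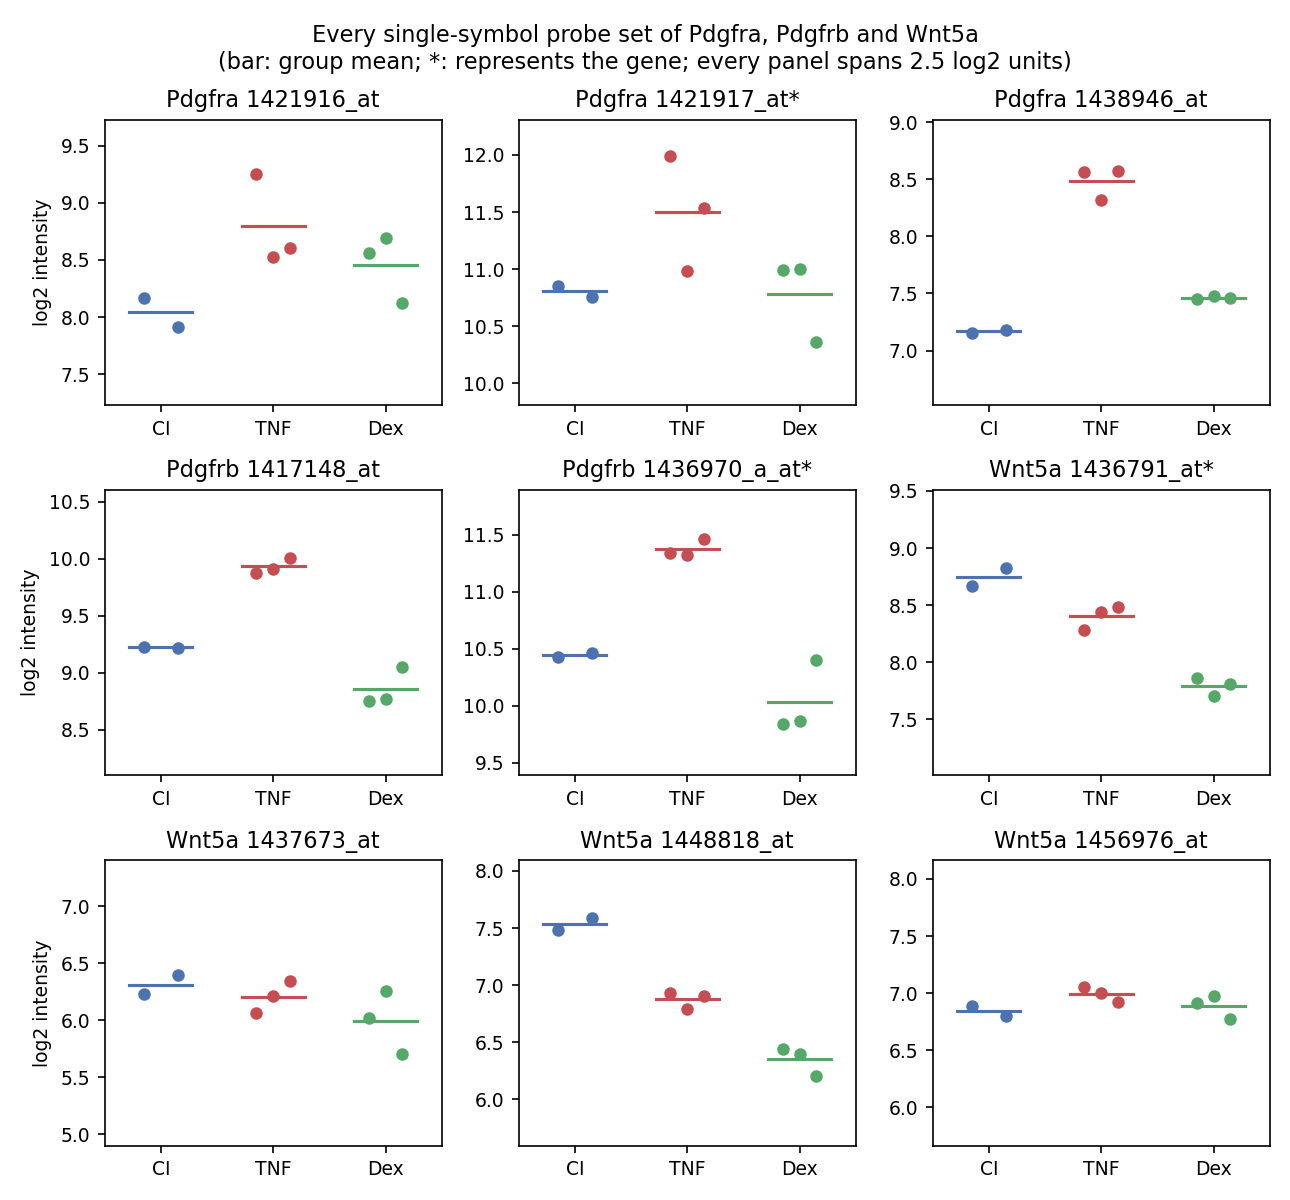
Log2 intensity (vertical axis) in each array by model for all single-symbol probe sets of Pdgfra, Pdgfrb and Wnt5a, with a bar at the group mean and an asterisk at the probe set that represents the gene. Pdgfra 1438946_at separates TNF (8.32 to 8.57) from Dex (7.45 to 7.48), whereas the brighter 1421917_at ranges from 10.99 to 11.99 within TNF, and in 2 of the 4 Wnt5a probe sets every Dex array lies below all others.

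Thy1, which encodes CD90, a surface protein of mesenchymal cells, varied little within a group, with an SD of 0.061 in CI, 0.041 in TNF and 0.015 in Dex. Its log2 intensity was 10.28 and 10.37 for CI, 9.99, 10.07 and 10.05 for TNF and 9.89, 9.91 and 9.91 for Dex. The order was CI, TNF, Dex with no overlap between neighbours. The differences were small, -0.29 ± 0.07 for TNF minus CI (limma adjusted p = 0.0126) and -0.42 ± 0.07 for Dex minus CI (adjusted p = 0.00118), and neither reached the minimum size for a call. TNF minus Dex was 0.13 ± 0.06 (adjusted p = 0.166).

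Gata2 and Gata3 encode the zinc-finger transcription factors that hold the preadipocyte back. Gata2 lay at 7.77 and 7.65 for CI, 7.70, 7.70 and 7.52 for TNF and 7.53, 7.55 and 7.39 for Dex. TNF overlapped both other groups, and every Dex array lay below both CI arrays. Dex minus CI was -0.22 ± 0.09 (95% interval from -0.41 to -0.03, limma adjusted p = 0.0922) and TNF minus CI -0.07 ± 0.09 (interval from -0.26 to 0.12).
Gata3 was dim, its mean of 5.26 being within the lowest 25% of genes (below 6.47), so the size of its differences is uncertain. It read 5.51 and 5.59 for CI, 5.66, 5.18 and 5.31 for TNF and 4.98, 5.04 and 4.81 for Dex. The 3 Dex arrays were the lowest of the 8, and TNF replicate 1 was the highest, above both CI arrays. Gata3 fell in Dex against CI by 0.61 ± 0.13 (adjusted p = 0.00476), but not without CI replicate 2 (-0.56, adjusted p = 0.0509). TNF minus Dex was 0.44 ± 0.11 (adjusted p = 0.0159), under the minimum size.

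The WNT ligands behaved differently from each other. Wnt5a, which signals mostly without beta-catenin, had log2 intensities of 8.67 and 8.83 for CI, 8.28, 8.44 and 8.49 for TNF and 7.86, 7.70 and 7.81 for Dex. The order was CI, TNF, Dex, and no group overlapped another. Wnt5a was 1.94-fold lower in Dex than in CI (-0.95 ± 0.09, limma adjusted p = 1.95e-05) and higher in TNF than in Dex by 0.61 ± 0.08 (adjusted p = 0.000237). TNF minus CI was -0.34 ± 0.09 (adjusted p = 0.0176), under the minimum size. Of its 3 other probe sets, 1448818_at repeated the order, at 7.48 and 7.59 in CI, 6.79 to 6.93 in TNF and 6.21 to 6.44 in Dex, and passed in all 3 comparisons (Dex minus CI -1.19 ± 0.09, TNF minus CI -0.66 ± 0.09, TNF minus Dex 0.53 ± 0.08). The other two, 1437673_at and 1456976_at, passed in none, with Dex minus CI at -0.32 ± 0.14 and 0.04 ± 0.09.

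Wnt10b, the ligand that acts through beta-catenin, read 7.44 and 7.20 for CI, 7.21, 7.22 and 7.40 for TNF and 7.15, 7.26 and 7.32 for Dex. The 3 groups overlapped. Its differences were -0.05 ± 0.10 for TNF minus CI, -0.08 ± 0.10 for Dex minus CI and 0.03 ± 0.09 for TNF minus Dex. The 95% intervals, from -0.26 to 0.16, from -0.29 to 0.13 and from -0.16 to 0.22, hold no difference as large as the minimum size for a call.

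Fgf2, a heparin-binding growth factor that fibroblasts make and answer to, had the largest difference of the 9 genes. It read 8.09 and 7.91 for CI, 7.66, 7.09 and 6.88 for TNF and 6.78, 6.65 and 6.41 for Dex. Every Dex array lay below every TNF array and every TNF array below CI, but TNF replicate 3 lay close to the highest Dex array and TNF replicate 1 stood apart towards CI. Fgf2 was 2.61-fold lower in Dex than in CI (-1.39 ± 0.19, limma adjusted p = 0.000275), a call that held in all 20 alternative fits. It was 1.73-fold lower in TNF than in CI (-0.79 ± 0.19, adjusted p = 0.011), which was lost without CI replicate 1 (-0.70, adjusted p = 0.0878) and with the beta-actin covariate (-0.61, adjusted p = 0.092). It was higher in TNF than in Dex by 0.60 ± 0.17 (adjusted p = 0.0252). That call was lost in 5 of 20 alternative fits, among them those without TNF replicate 1 (0.37), Dex replicate 2 (0.62, adjusted p = 0.0641) or Dex replicate 3 (0.50, adjusted p = 0.0869).

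**Figure D3:**
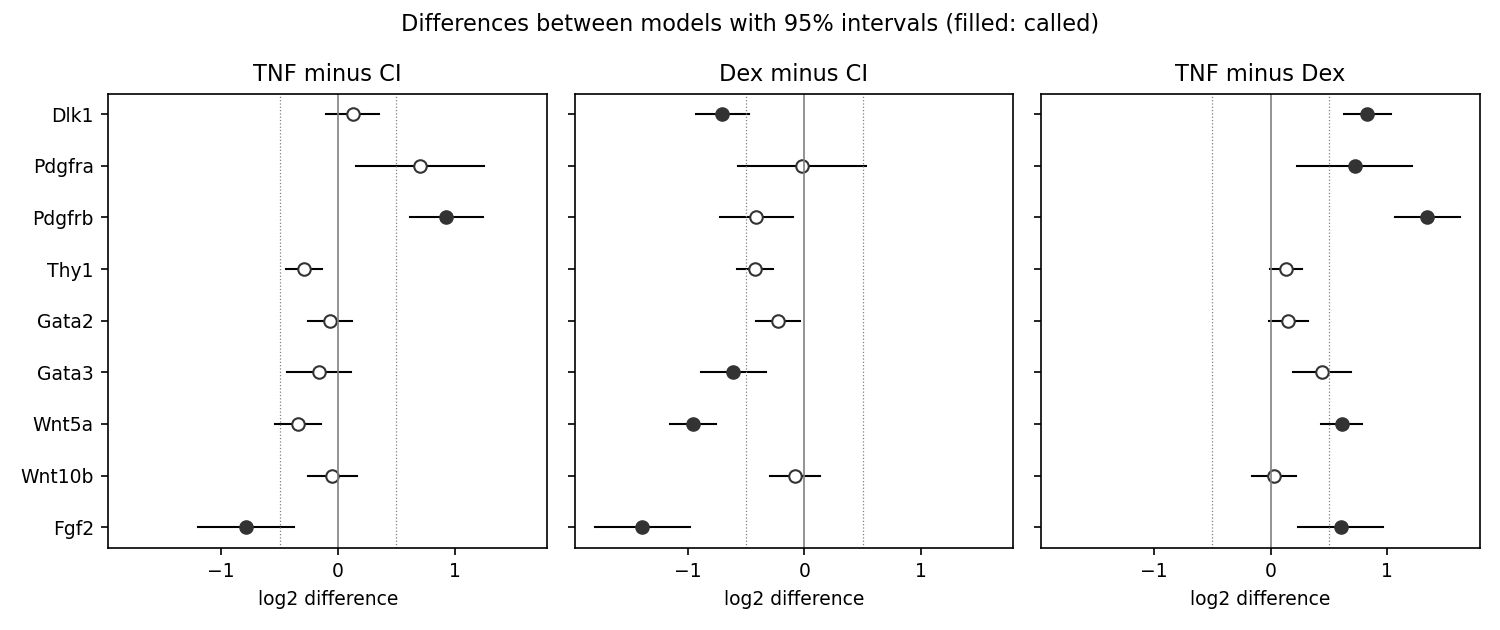
Log2 difference (horizontal axis) of each gene between models, with its 95% interval from the limma fit; filled points are called, dotted lines mark differences of 0.5. Filled points are Pdgfrb and Fgf2 for TNF minus CI, Dlk1, Gata3, Wnt5a and Fgf2 for Dex minus CI, and Dlk1, Pdgfra, Pdgfrb, Wnt5a and Fgf2 for TNF minus Dex.

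As a list, 2 of 9 genes were called for TNF minus CI, where 8.22% of all genes passed. The count was 1 without CI replicate 1, and 1 with the beta-actin covariate. For Dex minus CI 4 of 9 were called against 9.0% of all genes, and all 4 were lower in Dex, as were 5.67% of all genes. For TNF minus Dex 5 of 9 were called against 7.30% of all genes, all 5 higher in TNF, as were 4.14% of all genes. That count was 3 without TNF replicate 1, Dex replicate 2 or Dex replicate 3. Groups did not overlap for 6, 7 and 6 of the 9 genes in the same order of comparisons, against 53.0%, 48.0% and 35.9% of all genes. The median difference over the list was -0.07, -0.42 and 0.60, and over all genes 0.03, 0.02 and 0.01. The mean of Dex was below that of CI for 9 of 9 genes, as for 45.5% of all genes, and that of TNF above Dex for 9 of 9, as for 51.7%. These comparisons share the Dex arrays, and the genes were chosen with earlier results of these data known, so the counts are a description only. The sign of Pdgfra for Dex minus CI turned with quantile normalization (0.027) and with each of its other probe sets (0.41 and 0.30).

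Genes of mature fat cells and of fibroblasts were read beside them. Of 10 measured mature adipocyte genes, 6 fell in TNF against CI and 0 rose (Retn -0.95 ± 0.09, Lep -0.93 ± 0.19, Cidec -0.85 ± 0.08, Cebpa -0.64 ± 0.10). Lep, the leptin gene, lay in the lowest 25% of genes and read 7.17 and 6.26 in CI, 5.69 to 5.83 in TNF and 5.76 to 5.87 in Dex, and without CI replicate 1 it was called neither for TNF minus CI (-0.48) nor for Dex minus CI (-0.43). In Dex against CI 3 fell, Lep (-0.89 ± 0.19), Slc2a4 (-0.65 ± 0.08) and Pparg (-0.61 ± 0.08), and the triglyceride lipase gene Pnpla2 rose by 0.94 ± 0.08. In TNF against Dex 3 were lower, Retn (-1.08 ± 0.08), Cidec (-0.91 ± 0.07) and Pnpla2 (-0.87 ± 0.07). Of 8 fibroblast genes, 3 rose and 2 fell in TNF against CI, fibronectin Fn1 by 1.30 ± 0.10, smooth muscle actin Acta2 by 1.06 ± 0.15 and S100a4 by 0.78 ± 0.08 against Fap (-0.69 ± 0.09, in the lowest 25% of genes) and Postn (-0.50 ± 0.10). In Dex against CI 4 fell and 0 rose, among them the collagens Col3a1 (-1.29 ± 0.10) and Col1a1 (-1.14 ± 0.11), with Fap (-0.68 ± 0.09) and Postn (-0.65 ± 0.10). In TNF against Dex 5 were higher and 0 lower, led by Fn1 (1.64 ± 0.09), Acta2 (1.39 ± 0.13), Col3a1 (1.24 ± 0.09) and Col1a1 (0.99 ± 0.10). The summed intensity of the 8 fibroblast genes was 46171 to 49910 in CI, 52675 to 56266 in TNF and 32444 to 35586 in Dex, and that of the 10 adipocyte genes 106632 to 106761, 83274 to 85363 and 105870 to 113024. The brightest of these 10, Adipoq (20254 to 21483 over all arrays) and Fabp4 (21168 to 22439), weigh most in that sum. Both lay near the array maxima (22432.5 to 24273.6), so their evenness does not show equal expression. Pnpla2 read 7272 and 7036 in CI and 12531 to 14462 in Dex, so the sum can hide falls of dimmer genes. The fibroblast sum was thus highest in TNF and lowest in Dex, the order in which the means of Dlk1 and Pdgfrb also stood, and its part in their differences was not tested. In bulk RNA, fewer cells of a type and less RNA per cell cannot be told apart.

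The other genes of the WNT pathway were taken from lists of ligands, receptors, inhibitors and targets. Of 17 other ligands, 0 were called by limma for TNF minus CI and 0 for Dex minus CI (4 and 3 at an unadjusted p under 0.05), and Wnt8b alone was called for TNF minus Dex (0.55 ± 0.10). The ligands closest to a call were Wnt6 for TNF minus CI (0.30 ± 0.08, adjusted p = 0.0268) and Wnt11 for Dex minus CI (0.31 ± 0.09, adjusted p = 0.0298), both under the minimum size. Wnt2b, Wnt3, Wnt5b, Wnt8a, Wnt9a, Wnt11 and Wnt16 lay in the lowest 25% of genes. For genes this dim, the lack of a call does not show an unchanged level. Of 17 receptors and secretion genes, 1 rose and 2 fell in TNF against CI, and 1 rose and 3 fell in Dex against CI. The riser in both was Porcn, the enzyme that lipidates WNT proteins for secretion, at 8.33 and 8.34 in CI, 9.52 to 9.60 in TNF and 9.67 to 9.71 in Dex (1.22 ± 0.07 and 1.36 ± 0.07). The receptor gene Fzd4 fell in both (-0.75 ± 0.10 and -1.13 ± 0.10), as did Fzd5 (-0.56 ± 0.09 and -0.51 ± 0.09). Fzd1 fell in Dex against CI (-0.74 ± 0.17) and was higher in TNF than in Dex (0.78 ± 0.15).

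Of 13 measured WNT inhibitors, Sfrp2 was the only one called, and it was called in all 3 comparisons. Frzb, Dkk1, Dkk2, Dkk4, Wif1 and Sost lay in the lowest 25% of genes, so their lack of a call says little. Sfrp2 encodes a secreted protein that binds WNT ligands, and it read 10.08 and 10.05 in CI, 10.71 to 10.92 in TNF and 8.48 to 8.67 in Dex. The differences were 0.78 ± 0.09 for TNF minus CI, -1.48 ± 0.09 for Dex minus CI and 2.27 ± 0.08 for TNF minus Dex. Its order of models was TNF over CI over Dex. The means of Dlk1, Pdgfra and Pdgfrb stood in that order, but not those of the others among the 9 genes. For Pdgfra, Dex minus CI was only -0.02 ± 0.25, and its other probe sets placed Dex above CI (0.41 and 0.30). Of 19 measured beta-catenin effectors and targets, 3 rose in TNF against CI, the WNT-induced matricellular genes Ccn5 (1.03 ± 0.13) and Ccn4 (0.94 ± 0.17) and the cyclin gene Ccnd1 (0.98 ± 0.11). In Dex against CI 2 rose, Lef1, a nuclear partner of beta-catenin (0.95 ± 0.09), and Ccnd1 (0.71 ± 0.11), and 0 fell in either. In TNF against Dex Ccn4 (0.67 ± 0.15) and Ccn5 (0.66 ± 0.12) were higher and Lef1 lower (-0.63 ± 0.08). Axin2, a feedback target of beta-catenin, had means of 6.50, 6.48 and 6.48 in CI, TNF and Dex, just above the limit of the lowest 25% of genes (6.47).

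On the PDGF side, Pdgfa, a ligand of PDGFRA, rose in TNF against CI by 0.52 ± 0.09. Pdgfrl, which encodes a receptor-like protein without a kinase, was at 8.93 and 8.77 in CI, 10.10 to 10.16 in TNF and 8.41 to 8.46 in Dex. Its level in TNF exceeded that in CI by 1.29 ± 0.07 and that in Dex by 1.70 ± 0.07, and its Dex minus CI difference of -0.41 ± 0.07 (limma adjusted p = 0.00205) was under the minimum size. In all, 2, 0 and 1 of the 5 genes of this list were called for TNF minus CI, for Dex minus CI and for TNF minus Dex. Among 15 FGF ligands and receptors, Fgf7, a fibroblast-made growth factor for epithelia, was at 9.63 and 9.48 in CI, 10.36 to 10.96 in TNF and 8.47 to 8.75 in Dex. It rose in TNF against CI by 1.07 ± 0.15, fell in Dex against CI by 0.96 ± 0.15 and was higher in TNF than in Dex by 2.03 ± 0.13. Klb, the co-receptor for FGF21, fell against CI in TNF (-1.08 ± 0.09) and Dex (-1.59 ± 0.09) and was higher in TNF than in Dex (0.51 ± 0.08), and Fgf10 fell in Dex against CI (-0.62 ± 0.10). The FGF2 receptor gene Fgfr1 had means of 12.12 in CI, 12.00 in TNF and 12.20 in Dex, with 0 calls.

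Of the 6 other GATA genes and FOG cofactors, limma called 0 in every comparison, with 1 at an unadjusted p under 0.05 in each. The closest were Zfpm1, which encodes the cofactor FOG1 (TNF minus CI 0.38 ± 0.10, adjusted p = 0.0214, and TNF minus Dex 0.26 ± 0.09, adjusted p = 0.0691), and Gata5 (Dex minus CI 0.19 ± 0.08, adjusted p = 0.143). Gata4 and Gata5 lay in the lowest 25% of genes. Of 14 genes of Dlk1 processing and the Notch pathway, with which DLK1 is thought to interact, 1 rose and 2 fell in TNF against CI and 1 fell in Dex against CI. The Notch ligand gene Jag1 fell in both (-0.89 ± 0.11 and -1.07 ± 0.11). Hes1, a Notch target that restrains differentiation, fell in TNF against CI (-1.04 ± 0.20) and was lower in TNF than in Dex (-0.57 ± 0.17), while Rbpj, the DNA-binding partner of Notch, rose in TNF against CI (0.57 ± 0.14) and was higher in TNF than in Dex (0.51 ± 0.13).

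Of 15 other measured preadipocyte and anti-adipogenic genes, 2 rose and 2 fell in TNF against CI. Tgfb1 rose by 0.87 ± 0.09 and the activin subunit gene Inhba by 0.66 ± 0.12, both encoding growth factors that hold back adipogenesis, while Hes1 and Twist1 (-0.66 ± 0.09) fell. In Dex against CI 4 rose and 2 fell. Cd24a, a progenitor surface marker, read 5.44 and 5.30 in CI, 5.48 to 5.67 in TNF and 6.64 to 6.77 in Dex, and it rose in Dex by 1.35 ± 0.08, with a mean within the lowest 25% of genes. Foxc2 (1.10 ± 0.21), Zfp521, a factor that opposes adipogenic commitment (0.85 ± 0.20), and Tgfb1 (0.55 ± 0.09) rose as well, and Runx1t1 (-1.17 ± 0.16) and Twist1 (-0.85 ± 0.09) fell. In TNF against Dex Runx1t1 was higher (0.86 ± 0.14) and Cd24a (-1.16 ± 0.08), Foxc2 (-0.88 ± 0.18) and Hes1 lower. The median differences over this list were 0.12, 0.03 and 0.14 for TNF minus CI, for Dex minus CI and for TNF minus Dex.

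Of 86 calls among the listed genes and treatment markers, 17 were lost in at least 1 of the 8 fits that left out an array. For TNF minus CI these were Lep, Pdgfa, Pparg, Postn, Fzd5, Hes1 and Rbpj, for Dex minus CI Lep, Fzd1, Fzd5, Zfp521 and Tgfb1, and for TNF minus Dex Hes1, Rbpj, Klb, S100a4 and Wnt8b. Among these only Lep moved by over 1.5 times.

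The median differences of the WNT, PDGF, FGF, GATA and Notch lists lay between -0.054 and 0.22 over the 3 comparisons. Those of the fibroblast list were 0.017, -0.49 and 0.75 and those of the mature adipocyte list -0.57, -0.047 and -0.21, where the medians of all genes were 0.027, 0.020 and 0.0067.

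**Figure D4:**
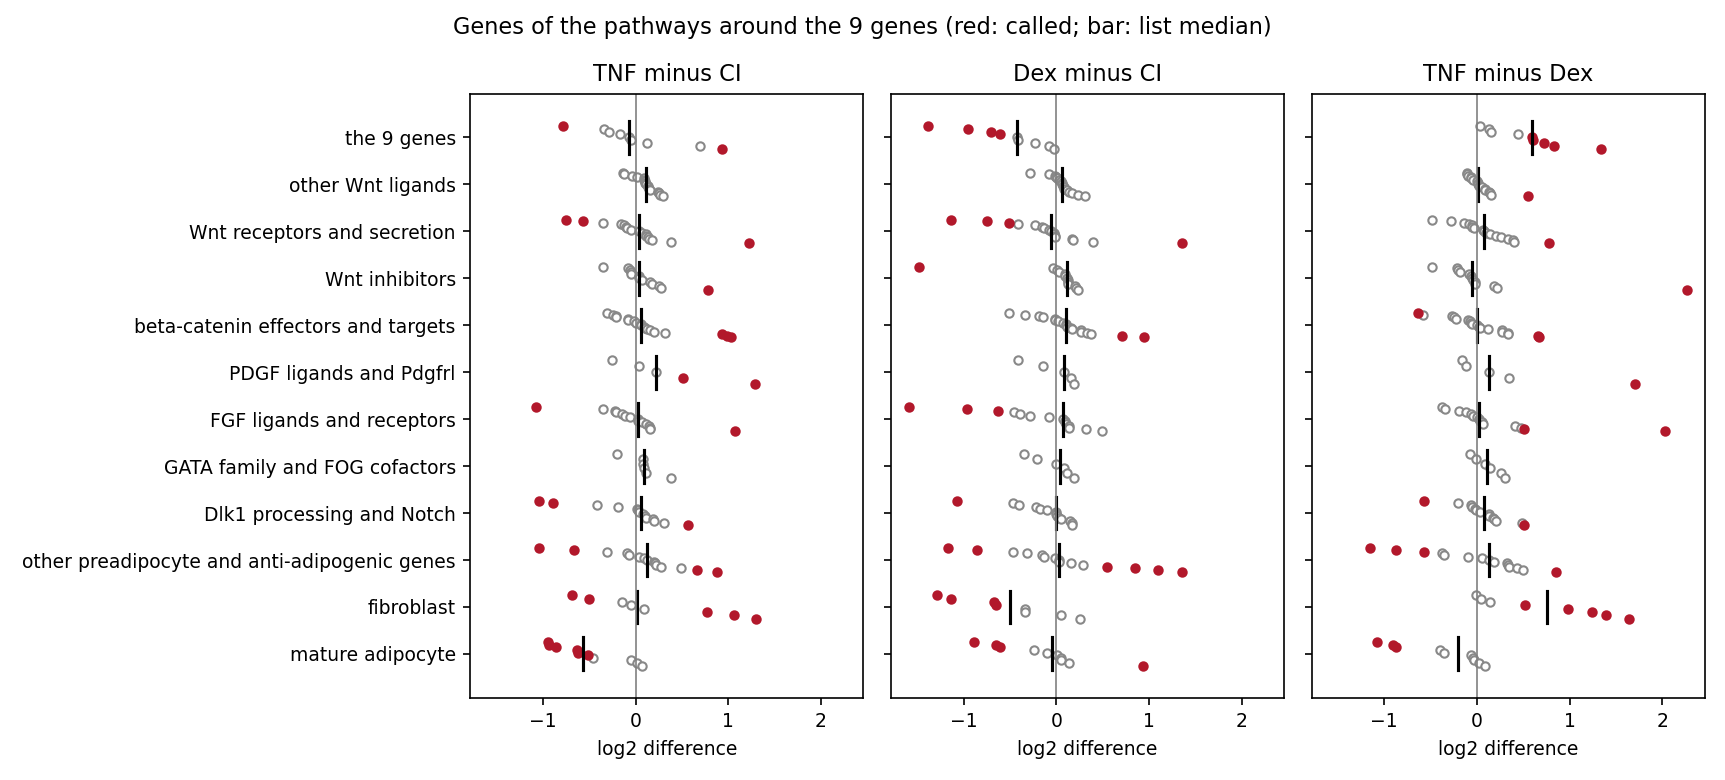
Log2 difference (horizontal axis) of every measured gene in the lists around the 9 genes (rows), by comparison; red points are called and black bars mark list medians. The bar of the 9 genes sits at -0.42 for Dex minus CI and 0.60 for TNF minus Dex, and the isolated red points of the WNT inhibitors and FGF rows at 2.27 and 2.03 are Sfrp2 and Fgf7.

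Over the 8 arrays, the genes whose centred log2 profile was nearest to that of each called gene were found by the root mean square difference, a description in which all genes share the same arrays. Nearest to Dlk1 were Fads2 (0.07), Col1a2 (0.09) and Fads3 (0.09), where the SD of Dlk1 itself over the arrays was 0.42. Nearest to Pdgfrb (SD 0.66) were Itgav (0.11), Gstt1 (0.12) and Bcat1 (0.16), and to Pdgfra (SD 0.50) Frmd4a (0.15), Il6st (0.17) and Parp8 (0.18). The Pdgfra match used its brightest probe set, which spread widely within TNF (11.99, 10.99 and 11.53), as Frmd4a did (8.89, 7.85 and 8.32). It thus reflects spread within a group as well as the models, and the tighter 1438946_at was not matched. Wnt5a (SD 0.42) was nearest to Antxr2 (0.06), Zdhhc9 (0.06) and Rp2 (0.09), and Fgf2 (SD 0.62) to Ext1 (0.15), Parp12 (0.16) and Ube2c (0.16). Gata3 (SD 0.31) was nearest to Gm5817 (0.06), Resf1 (0.07) and Rnf138 (0.07). None of these nearest genes is itself among the 9.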

How the data were processed

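The authors deposited a linear intensity for each probe set, with values of 6.14 to 24274. For this array type the methods give RMA in the affyPLM package, and the sources used here do not state whether these are RMA values with the logarithm removed. Here log2 was taken with no pseudocount. Of 45101 probe sets, 34958 had 1 gene symbol in GEO's platform annotation, 932 several and 9211 none. Among the single-symbol probe sets of a gene, the brightest by its mean of 8 arrays stood for it. The others served as a check for the 9 genes only, and all other named genes were read from the brightest alone. Groups were taken from sample titles and fitted together, on 5 residual degrees of freedom, with limma 3.58.1 in R 4.3.3 (lmFit, eBayes, two-sided, Benjamini-Hochberg over 18194 genes). A call needed both an adjusted p below 0.05 and a log2 difference beyond 0.5 in size, as in the study's methods. Intervals are 95% intervals of that fit. The 9 genes and all lists were chosen with earlier results of these data known. The text names all 9, up to 4 called genes of each list and comparison (or the closest to a call), the treatment markers, and the 3 genes nearest in profile to each called gene. Other genes given with values, such as Axin2, Fgfr1 and the cell type markers, were chosen after their values were seen. List symbols were matched to newer ones through the RefSeq gene table. Arrays have no read depth, and their number limits the precision. The median intensity of an array ran from 124.7 to 131.0. Alternatives changed the scaling, the low-signal filter, the probe set rule, the block, the groups fitted, the moderation, array weights, the threshold and the arrays left out. Figures were drawn with Python 3.11.15.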

Additional observations from a re-analysis of the deposited data

How the results depend on the processing

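Of 537 refits of the 27 differences of single genes, 483 kept both direction and call, 23 lost a call, 16 gained one and 15 changed sign. The calls of Fgf2 for Dex minus CI, Wnt5a for Dex minus CI, and Pdgfrb for TNF minus CI and TNF minus Dex held in all 20 alternatives each. With no minimum difference the number of the 9 genes called for TNF minus CI was 4, where 4181 of all 18194 genes were called. It was also 4 with the probe set of highest variance, and 1 with the beta-actin covariate, chosen after seeing the data. For TNF minus Dex the number was 2 with the median over probe sets and 3 with eBayes trend and robust settings. Except with no minimum difference, the share of all genes called under these settings is not given here, so the counts are a description only. Leaving out single arrays gave 1 to 3 of the 9 for TNF minus CI, 3 to 5 for Dex minus CI and 3 to 6 for TNF minus Dex, with 1237 to 1605, 1552 to 1795 and 1284 to 1420 of all 18194 genes. With no minimum difference 4181, 3926 and 3801 of the 18194 genes were called (TNF minus CI, Dex minus CI, TNF minus Dex), against 1496, 1637 and 1328 in the main fit. When every probe set was a feature, 2992, 3305 and 2583 probe sets were called in the same order. These came from 45101 probe sets, less the control probe sets and including those without a symbol. As more features were tested, the probe set counts do not compare directly with the gene counts.

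The sign of an uncalled difference turned in these cases. Pdgfra for Dex minus CI was 0.027 with quantile normalization, 0.30 with the highest-variance probe set, 0.41 with the median over probe sets, 0.079 with the replicate block and 0.084 with array weights, and between -0.13 (without Dex replicate 2) and 0.19 (without Dex replicate 3) with an array left out, also turning without CI replicate 1 (0.027). Dlk1 for TNF minus CI was -0.079 with the median over probe sets. Gata2 was -0.031 for TNF minus Dex with the highest-variance probe set and 0.0089 for TNF minus CI with the beta-actin covariate. With an array left out, Wnt10b ran from -0.17 (without CI replicate 2) to 0.072 (without CI replicate 1) for TNF minus CI, from -0.20 to 0.040 (the same arrays) for Dex minus CI, and from -0.029 (without TNF replicate 3) to 0.069 (without Dex replicate 3) for TNF minus Dex, also turning without Dex replicate 1 (-0.015) and with the covariate (-0.11). The cause was not tested.

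The median over probe sets ended the calls of Dlk1 for Dex minus CI (-0.41) and TNF minus Dex (0.34). It also ended those of Pdgfra (0.34) and Wnt5a (0.32) for TNF minus Dex. For Dlk1 it averages in the dimmer probe set, and for Pdgfra and Wnt5a it rests on dimmer probe sets given above. The main fit did not pair samples by replicate number, and whether the numbers mark a shared batch could not be settled. Across genes, deviations from the group mean of same-numbered arrays correlated at 0.33, -0.09 and 0.21 between TNF and Dex. TNF replicates 1 and 3 went best with the Dex array of the same number, and TNF replicate 2 with Dex replicate 3 (0.28). With the replicate block 3, 5 and 5 of the 9 genes were called, Pdgfra for TNF minus CI (0.80) and Pdgfrb for Dex minus CI (-0.53) being added, and 1534, 1730 and 1339 of all genes. With 2 or 3 arrays a group, small differences cannot be told from spread, and no measure of background was used for dim genes such as Gata3.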
